A study of Mus musculus with 12 samples.

Results

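The ADAM family holds the protein-coding mouse genes whose symbol is Adam followed by a number and at most 1 letter, and 32 of the 22380 protein-coding genes listed met that definition. The genes named Adamts or Adamdec, which belong to related families, were not taken in. From where each gene is known to be expressed, 19 members were set down as germ cell members, 11 as somatic members, and 2 (Adam7 and Adam28) were held apart because they are best known from epididymis and lymphoid tissue. Transcript levels were measured by sequencing of rRNA-depleted total RNA from whole testes of C57BL/6NHsd mice at postnatal day (PND) 7, 14, 17, 21 and 28, with 2 mice at each age and 10 mice in all. These ages follow the first wave of spermatogenesis, in which spermatogonia, spermatocytes, round spermatids and elongating spermatids appear in turn. Each age had its own mice, so the p-values below measure the spread between mice, and with whole organs of 1 strain the values hold for no single cell type. No genotype or treatment differed between the groups, all of which were untreated. Each PND 7 mouse was sequenced as 2 barcoded libraries, whose counts were summed and whose RPKM were averaged.

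ADAM proteins are membrane proteins that carry, from the outside inwards, a prodomain, a metalloprotease domain, a disintegrin domain and a cysteine-rich region. Somatic members such as ADAM10 and ADAM17 are active sheddases, which cut the outer part of other membrane proteins off the cell. Most of the germ cell members end up on sperm, where ADAM1, ADAM2 and ADAM3 are known for their role in the passage of sperm through the oviduct and in binding to the egg coat, and several of them have lost the zinc-binding site that a protease needs.

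The site is visible in the coding DNA. In the lines below, 33 bases from the Ensembl transcripts of the mm9 assembly run from the first to the last codon of the zinc-binding motif, or from the aligned position where a member lacks it, and capitals mark the histidine, glutamate and glycine codons that match the motif. Each window is coding sequence. They are shown because some germ cell members keep the site of the active proteases and others do not.
Adam10 (chr9:70602103-70609392, plus strand, across exons 9 and 10): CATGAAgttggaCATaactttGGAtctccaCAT
Adam17 (chr12:21342593-21342625, minus strand): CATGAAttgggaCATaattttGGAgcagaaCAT
Adam9 (chr8:26100798-26100830, minus strand): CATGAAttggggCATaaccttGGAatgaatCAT
Adam1a (chr5:121970098-121970130, minus strand): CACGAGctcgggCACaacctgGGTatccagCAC
Adam1b (chr5:121951946-121951978, minus strand): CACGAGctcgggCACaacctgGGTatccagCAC
Adam24 (chr8:41765872-41765904, plus strand): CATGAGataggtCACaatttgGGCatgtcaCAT
Adam2 (chr14:66672678-66672710, minus strand): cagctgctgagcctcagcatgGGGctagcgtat
Adam3 (chr8:25817890-25817922, minus strand): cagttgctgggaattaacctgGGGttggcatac
Adam5 (chr8:25916921-25916953, minus strand): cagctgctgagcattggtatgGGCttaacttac
Adam29 (chr8:58351171-58351203, minus strand): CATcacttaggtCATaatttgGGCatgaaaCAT
Adam6a (chr12:114783261-114783293, plus strand): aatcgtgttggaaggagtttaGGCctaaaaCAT

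The somatic proteases Adam10, Adam17 and Adam9 hold all 5 residues of the motif, and so do Adam1a, Adam1b and Adam24 among the germ cell members. Adam2, Adam3 and Adam5 keep 1 of the 5. Adam29 keeps 4 of 5, without the glutamate codon, and Adam6a keeps 2. Over the family, the motif was present in 8 of 11 somatic members and in 10 of 19 germ cell members, and the somatic members without it were Adam11, Adam22 and Adam23, which are known as ligand-binding proteins of neurons. The windows of Adam1a and Adam1b are the same letter for letter.

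Summed over a mouse, counts assigned to genes ran from 3994026 to 13559548 with a median of 7103531. At PND 14, the library of mouse 1 stood apart: its summed level of 4 markers of elongating spermatids (Tnp1, Tnp2, Prm1 and Prm2) was 427.1 RPKM (reads per kilobase of exon, scaled to sequencing depth) against 15.1 in mouse 2, although elongating spermatids are not a part of the testis at that age. The library of PND 17 mouse 1 held markers of epididymis epithelium at a summed 411.2 RPKM against 8.02 in mouse 2, with counts of 6 of the 8 markers. In PND 7 mouse 2 their sum was 177.4 RPKM against 1.41 in mouse 1, with counts of 3 of the 8 in either mouse. That sum was mainly Spink8 (122.015 RPKM) and Crisp1 (47.615), while Lcn5, Lcn8, Lcn9, Rnase9 and Rnase10 had no count. PND 7 mouse 2 also held 62 counts of 4 lymphocyte markers against 8 in mouse 1, and those 62 were of Ms4a1 (47) and Cd3e (15) only. The testis markers were otherwise those of the labelled tissue, with all 6 markers each of Sertoli, Leydig and spermatogonial cells found in every mouse. These libraries are named again beside each result that rests on them, and their part in those results was not tested unless a value without them is given.

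Across the whole span, the family's summed RPKM went from mainly that of the members set down as somatic to mainly that of the germ cell members. The summed level of the 19 germ cell members was 3.6 and 5.92 RPKM in the PND 7 mice, 135.2 and 207.3 at PND 14, 383.6 and 203.5 at PND 17, 1177.6 and 897.9 at PND 21, and 1892.6 and 1849.8 at PND 28. Every mouse of PND 21 and PND 28 was above every younger mouse, while PND 14 and PND 17 overlapped. The summed level of the 11 somatic members was 84.4 and 87.9 RPKM at PND 7, 89.1 and 78.8 at PND 14, 76.2 and 82.5 at PND 17, 55.4 and 55.1 at PND 21, and 35.0 and 34.6 at PND 28. Germ cell members thus made up 4.08% and 6.31% of the family's RPKM at PND 7, 60.3% and 72.5% at PND 14, 82.8% and 71.2% at PND 17, 95.5% and 94.2% at PND 21, and 98.1% and 98.2% at PND 28. The order of the members changed with it: Adam10, Adam17 and Adam9 led at PND 7 with 79.7% and 74.4% of the family's RPKM, and Adam3, Adam5 and Adam2 led at PND 28 with 64.5% and 65.0%. In whole testis, more cells of a type and more RNA per cell cannot be told apart, nor can fewer cells and less RNA, so every level here is a share of the RNA of the organ.

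**Figure D1:**
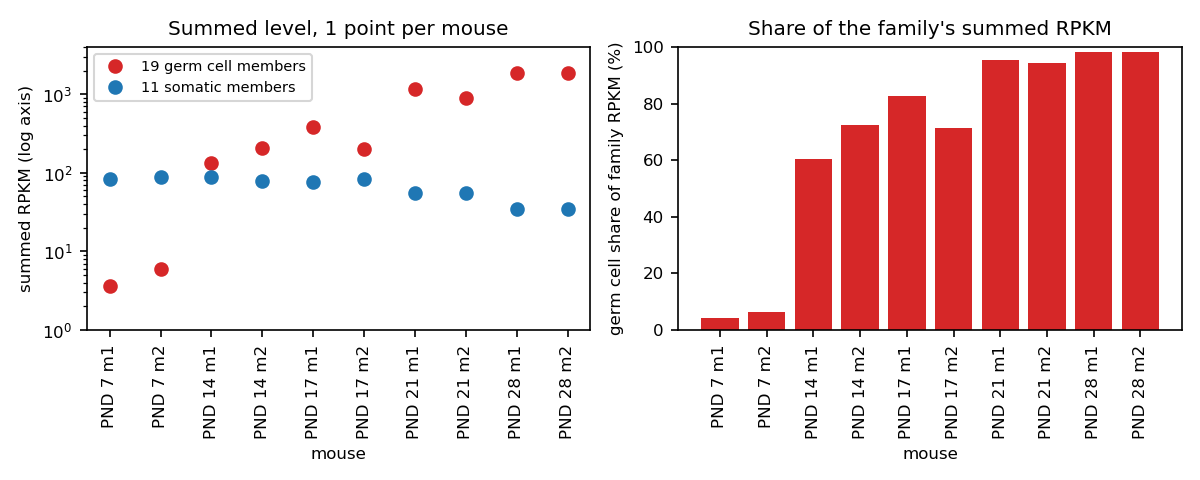
The left panel plots the summed RPKM (log axis) of the 19 germ cell members (red) and the 11 somatic members (blue) in each of the 10 mice, and the right panel the germ cell share of the family's RPKM in percent, with m1 and m2 for mouse 1 and mouse 2. The red points rise from 3.6 and 5.92 at PND 7 to 1892.6 and 1849.8 at PND 28, and the blue points end at 35.0 and 34.6.

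Between PND 7 and PND 28, all 19 germ cell members rose and 5 of 11 somatic members fell. A gene was called changed where the edgeR quasi-likelihood test over the 16860 genes that passed a filter on low counts gave a Benjamini-Hochberg adjusted p under 0.05 and the fold change was at least 2. Of all genes tested, 32.2% were called higher at PND 28 than at PND 7 and 23.4% lower, beside 19 of 19 germ cell members higher and 5 of 11 somatic members lower. In any comparison, a member without a count at the earlier age could only rise. This held here for 12 of the 19, which passed the filter through the older mice alone. The groups were also set down with earlier results of these data known, so these counts are a description. Of the 32 members, 31 passed the filter, all but Adam28. The same 19 germ cell members were called in each of 11 alternative settings and in each of 10 fits without 1 mouse. Of the 11 settings, that without a minimum fold is the same fit and could lose no call.

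The size of the germ cell rise was often a lower bound, since 12 of the 19 had no count in either PND 7 mouse. For these the PND 7 level was set to 3 counts over both mice, and the fold is given as at least that value. The median log2 fold change of the germ cell members was 11.42 as fitted and 8.54 with those 12 at their bound, beside 0.10 for all genes tested and -0.82 for the somatic members. Among the members with counts at PND 7, Adam3 rose 7899.5-fold (log2 12.95, SE 0.72, edgeR adjusted p = 4.57e-07), Adam5 rose 1027.9-fold and Adam21 rose 96.5-fold. These sizes rest on few counts at PND 7. Without PND 7 mouse 2, the log2 fold change was 12.17 for Adam3, 11.01 for Adam5 against 10.01, and 5.78 for Adam21 against 6.59. Adam1a and Adam4, which had the most counts of any late member at PND 7, rose 21.2-fold and 19.7-fold, and that of Adam1a was 4.41 on the log2 scale with all mice and 5.06 without PND 7 mouse 2. The bounds of the 12 members at 0 ran from at least 58.7-fold for Adam26b to at least 1144.0-fold for Adam24 and at least 1499.1-fold for Adam18.

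The germ cell members fell into an early and a late group by the test of PND 14 against PND 7. Adam1b, Adam2, Adam3, Adam5, Adam18, Adam30 and Adam32 were called higher at PND 14 with all mice and without either PND 14 mouse, and are called the early members below. The other 12 are called the late members. What the comparison of PND 14 with PND 7 shows for these groups follows from that choice and is given as a description.

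**Figure D2:**
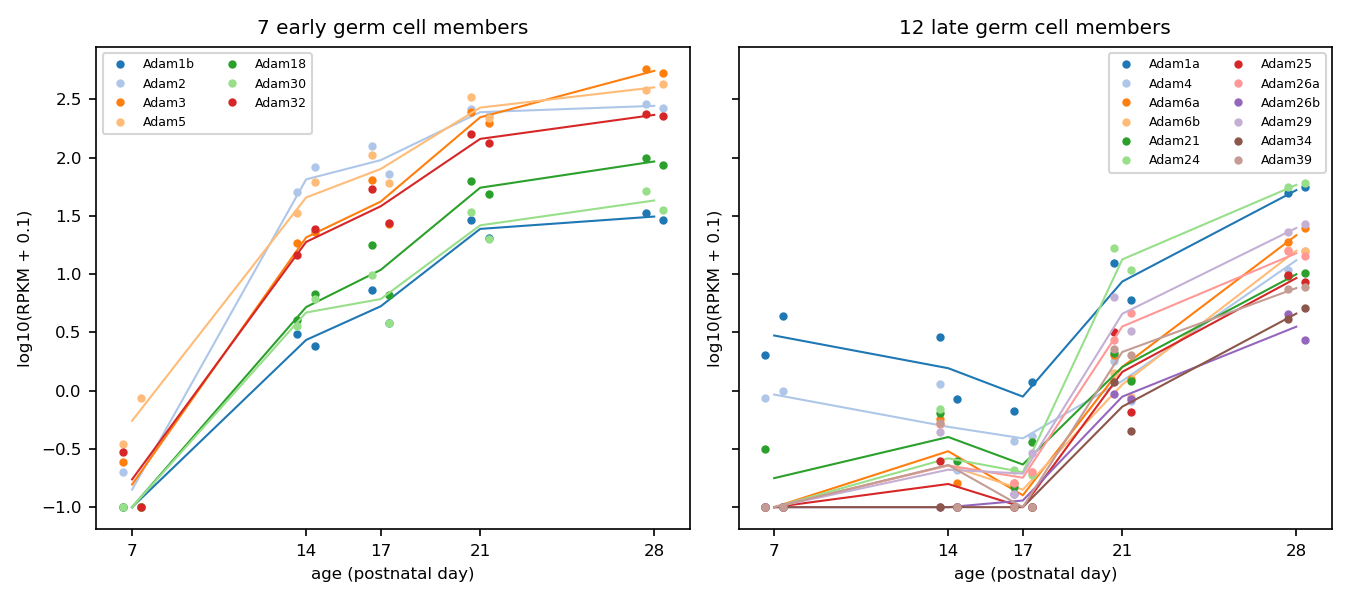
Each point is 1 mouse and each line joins the mean of log10(RPKM + 0.1) at each age, for the 7 early (left) and the 12 late (right) germ cell members, against age in postnatal days. The early members leave the floor of the plot by PND 14, and the late members, apart from low levels of Adam1a, Adam4 and Adam21, stay near it until PND 21.

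Among the early members the sperm surface genes Adam2, Adam3, Adam5 and Adam32 reached the highest levels of the family. Adam2 (ENSMUSG00000022039), which encodes fertilin beta, was at 0.10 and 0 RPKM in the PND 7 mice, 50.88 and 82.95 at PND 14, 124.67 and 72.44 at PND 17, 263.71 and 228.43 at PND 21, and 290.50 and 266.03 at PND 28. Adam3 (ENSMUSG00000031553), which encodes cyritestin and whose loss makes sperm unable to bind the egg coat, was at 0.145 and 0, 18.57 and 22.78, 64.77 and 27.02, 248.13 and 198.16, and 576.96 and 533.71 RPKM in the same order. Adam5 was at 0.25 and 0.77, 33.64 and 61.19, 104.71 and 60.79, 330.12 and 218.34, and 377.64 and 425.20 RPKM. Adam2 therefore led the family at PND 14, in both mice of PND 17 and in mouse 2 of PND 21, Adam5 led it in mouse 1 of PND 21, and Adam3 led it in both mice of PND 28.

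Adam32 followed at 0.20 and 0, 14.53 and 24.31, 53.57 and 27.14, 157.91 and 132.53, and 238.21 and 226.99 RPKM. Adam18, which encodes another sperm surface member, was at 0 in both PND 7 mice, then at 3.93 and 6.65, 17.74 and 6.53, 62.65 and 48.41, and 98.63 and 86.81 RPKM. Both were higher in every mouse at each later age except between PND 14 and PND 17 for Adam18, where the mice overlapped at 6.65 and 6.53. Adam30 was at 0 and 0, 3.48 and 6.03, 9.73 and 3.70, 34.31 and 19.89, and 51.82 and 35.28 RPKM. Adam1b, which encodes the fertilin alpha chain found on sperm, was at 0 and 0, 2.99 and 2.30, 7.21 and 3.74, 28.88 and 20.52, and 33.56 and 28.82 RPKM, and its PND 21 and PND 28 mice overlapped.

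In PND 14 versus PND 7, 8 members were called higher, against 13.5% of all genes tested, and 2 were called lower, against 5.43%. The 8 higher ones were the 7 early members and Adam6a. For Adam2, 2464 counts at PND 14 against 2 at PND 7 gave a ratio of 1286.4 with an exact 95% counting interval of 355.7 to 10627.9. Adam3 rose 220.0-fold (log2 7.78, SE 0.67, edgeR adjusted p = 2.8e-05), Adam32 rose 172.4-fold (adjusted p = 3.15e-05) and Adam5 rose 91.5-fold (adjusted p = 2.89e-05). The few counts of Adam2, Adam3 and Adam32 at PND 7 (2, 4 and 5) all came from mouse 1, and without mouse 2 the log2 fold changes of Adam3 and Adam32 were 7.01 and 6.65, against 7.78 and 7.43. For Adam5, leaving out PND 7 mouse 1 gave 5.87 and leaving out mouse 2 gave 7.53, against 6.52. Mouse 1 also held 65 counts of Clgn, a chaperone gene of spermatocytes singled out after its values were seen, against 2 in mouse 2. Ly6k, a partner gene of ADAM proteins singled out in the same way, had 89 and 1. The 6 spermatocyte markers were at a summed 102.4 RPKM in mouse 1 and 93.8 in mouse 2. By gene, Spo11 was at 1.925 and 0.685 RPKM and Hormad1 at 6.455 and 4.56. Sycp1, Sycp3 and Hist1h1t were higher in mouse 1 by a smaller ratio, and Piwil1 was at 0.79 and 0.805. Adam5 went the other way, with 7 counts in mouse 1 and 17 in mouse 2.

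Adam18, Adam30 and Adam1b had no count at PND 7. They were at least 64.3-fold, 57.9-fold and 38.7-fold higher at PND 14, with edgeR adjusted p of 0.000276, 0.000458 and 8.75e-05. Adam6a was the exception among the calls: it rested on 9 counts in PND 14 mouse 1 and 1 count in mouse 2, at adjusted p = 0.0405, and it was lost in 9 of the 10 fits without 1 mouse, that without PND 14 mouse 1 among them.

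The counts of other late members at PND 14 also lay in mouse 1, the library with spermatid markers. Adam24 had 13 counts there and 0 in mouse 2, Adam6b, Adam26a and Adam39 had 8 and 0 each, Adam29 had 7 and 0, and Adam25 had 3 and 0. Summed over the 12 late members, PND 14 mouse 1 held 154 counts and mouse 2 held 22, with 7795744 and 7169408 counts in the libraries as a whole. The early members were not higher in mouse 1, with a summed 128.0 RPKM against 206.2 in mouse 2. Without PND 14 mouse 1, the 7 early members were called higher, and Adam1a and Adam4 were called lower beside Adam12 and Adam19. Without PND 14 mouse 2, 13 members were called higher, of which 6 were late (Adam6a, Adam6b, Adam24, Adam26a, Adam29 and Adam39), and none was called lower.

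**Figure D3:**
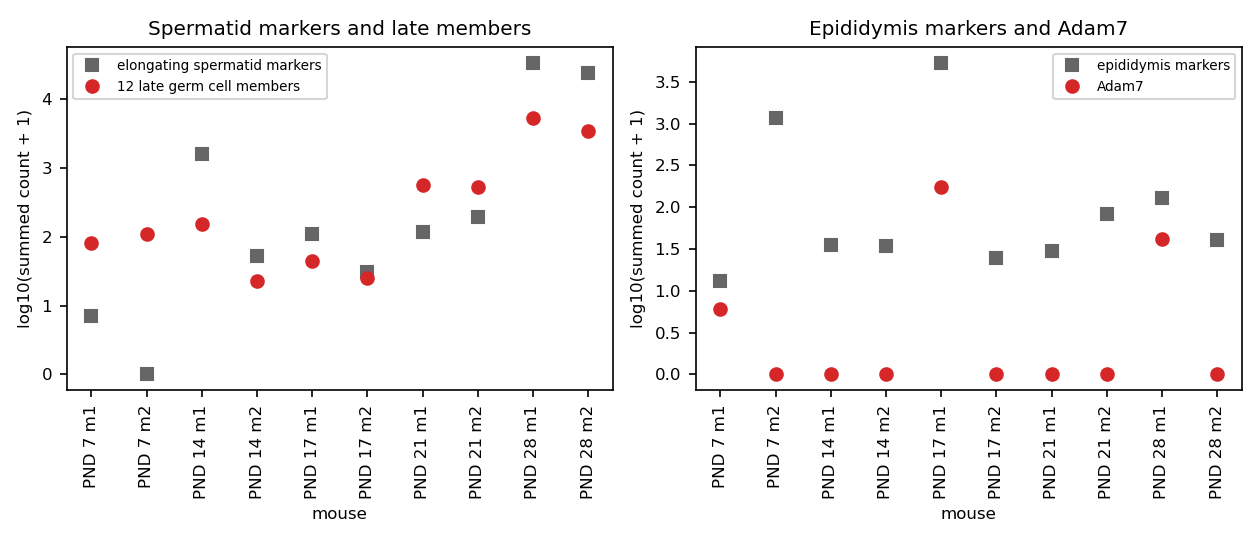
Both panels plot log10(summed count + 1) in each mouse. On the left are the 4 elongating spermatid markers (grey squares) and the 12 late members (red), where PND 14 mouse 1 holds 1587 marker counts and 154 member counts against 52 and 22 in mouse 2, and on the right are the 8 epididymis markers (grey squares) and Adam7 (red), where PND 17 mouse 1 holds 5377 and 174.

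In PND 17 versus PND 14, no member was called in either direction by edgeR, and of all genes tested 0.0% were called. At an unadjusted p under 0.05 there were 6 members and 769 of all genes. DESeq2 called 0 members and 1 gene, and limma on log2(RPKM + 1) called 0 members. The early members had a higher mean at PND 17, but the mice of PND 17 differed from each other as much as the ages did: Adam3 was at 64.77 and 27.02 RPKM there against 18.57 and 22.78 at PND 14, and its fold of 2.34 had an unadjusted p of 0.0118 and an adjusted p of 1.0. PND 17 mouse 1 was above mouse 2 for each of the 7 early members.

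In PND 21 versus PND 17, 18 of the 19 germ cell members rose and no member fell. Over all genes, 9.29% were called higher and 1.05% lower. The 19 germ cell members had a median log2 fold change of 3.83 (3.69 with 3 members at their bound), against 0 for all genes and 0.07 for the somatic members. Of the 12 late members, 10 were called here for the first time. The early members rose by log2 fold changes from 1.44 (Adam2) to 2.39 (Adam3), and the late members Adam1a, Adam21 and Adam24, which had more than 3 counts at PND 17, rose by 3.69, 3.83 and 7.08. Of all genes, 1566 were called higher and 177 lower. When libraries were scaled by their totals instead of by TMM, these numbers were 1282 and 342.

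Adam24, which encodes testase 1, a protease of sperm linked to the block to polyspermy, was at 0 in both PND 7 mice, 0.59 and 0 RPKM at PND 14, 0.11 and 0.09 at PND 17, 16.54 and 10.65 at PND 21, and 56.17 and 60.34 at PND 28. Its rise at PND 21 was 135.3-fold (log2 7.08, SE 0.74, edgeR adjusted p = 0.00162), and it was called in every fit without 1 mouse. Adam29 was at 0 and 0, 0.34 and 0, 0.03 and 0.19, 6.30 and 3.16, and 22.75 and 27.09 RPKM. Adam26a, a member of the same testase group, was at 0 and 0, 0.42 and 0, 0.06 and 0.10, 2.64 and 4.51, and 15.78 and 14.28 RPKM. Both had 3 counts in the PND 17 mice together, so their rise is given as a ratio of counts, 75.2 with an exact 95% counting interval of 25.1 to 369.6 for Adam29, and 59.0 with one of 19.6 to 291.2 for Adam26a.

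Adam25, Adam34 and Adam39 had no count at PND 17. Adam39 was at 0 in both mice of PND 7 and PND 17, at 0.43 and 0 RPKM at PND 14, at 2.17 and 1.93 at PND 21 and at 7.39 and 7.60 at PND 28, and it was at least 31.0-fold higher at PND 21 than at PND 17. Adam25 was at 0.15 and 0 RPKM at PND 14, 0 at PND 7 and PND 17, 3.08 and 0.56 at PND 21, and 9.82 and 8.52 at PND 28, and was at least 28.3-fold higher at PND 21. Adam34 was at 0 in all 6 younger mice, 1.08 and 0.35 RPKM at PND 21, and 4.03 and 4.99 at PND 28, and was at least 10.0-fold higher at PND 21. Adam26b, with 1 count in all mice up to PND 17, reached 0.84 and 0.74 RPKM at PND 21 and 4.49 and 2.63 at PND 28, and its ratio of counts at PND 21 was 35.4 with an interval of 5.63 to 1471.2.

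Adam6a and Adam6b lie on chromosome 12 and reached most of their level last. Adam6a was at 0 and 0, 0.47 and 0.06, 0.06 and 0, 1.91 and 1.17, and 18.69 and 24.65 RPKM. Adam6b was at 0 and 0, 0.42 and 0, 0 and 0.10, 1.33 and 0.79, and 16.06 and 15.56 RPKM. At PND 21 they stood at 7.11% and 6.70% of their PND 28 means, whereas Adam39 stood at 27.4%. Adam21 was at 0.215 and 0, 0.54 and 0.15, 0.05 and 0.26, 1.99 and 1.12, and 9.58 and 10.17 RPKM.

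Adam1a and Adam4 differed from the other late members in that they had counts in both PND 7 mice. Adam1a was at 1.925 and 4.265 RPKM at PND 7, 2.79 and 0.74 at PND 14, 0.57 and 1.08 at PND 17, 12.25 and 5.94 at PND 21, and 49.8 and 55.3 at PND 28. Of its 3092 exonic bases, 771 are shared on the same strand with exons of Mapkapk5, a kinase gene that was at 9.96 and 7.51 RPKM at PND 7 and between 9.19 and 20.8 RPKM in all later mice, and how the counts of such bases were divided was not tested. Adam4 was at 0.765 and 0.89, 1.04 and 0.11, 0.27 and 0.31, 1.71 and 0.71, and 10.73 and 15.85 RPKM, and was the germ cell member not called in PND 21 versus PND 17 (log2 2.12, SE 0.79, edgeR adjusted p = 0.104). In PND 28 versus PND 21 Adam4 rose 13.3-fold (log2 3.73, adjusted p = 0.00493), with a log2 of 4.34 without PND 21 mouse 1. Adam4 overlaps the genes Cox16 and Synj2bp on the same strand but shares no exonic base with them. The part of reads from their introns in its low counts at PND 7 was not tested.

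The count of 18 at PND 21 depended on single mice. It was 7 without PND 17 mouse 1, 5 without PND 17 mouse 2 and 8 without PND 21 mouse 1, in fits where the mouse left at an age was taken to vary as the other ages did, and the share of all genes called higher fell at the same time, to 3.11%, 1.42% and 2.71%. Adam1b and Adam24 were called in all 10 fits without 1 mouse. Of the members with a log2 fold change given above, that of Adam3 was 3.14 without PND 17 mouse 1, and that of Adam21 was 2.59 in the same fit but 4.84 when mouse 2 of PND 17 was left out instead.

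In PND 28 versus PND 21, 9 germ cell members rose and no member fell, against 7.37% of all genes called higher and 0.297% called lower. The 9 were Adam1a, Adam3, Adam4, Adam6a, Adam6b, Adam21, Adam24, Adam26a and Adam29, which are 8 of the 12 late members and 1 of the 7 early ones. Adam6b rose 17.9-fold (log2 4.16, SE 0.68, edgeR adjusted p = 0.00507), Adam6a rose 16.8-fold (log2 4.07, SE 0.52, adjusted p = 0.00181), and Adam1a rose 6.93-fold (log2 2.79, SE 0.51, adjusted p = 0.00675). Adam3 rose 2.92-fold (adjusted p = 0.0392). Adam2, by contrast, had a fold of 1.33 (log2 0.41, SE 0.34, adjusted p = 0.506), and it was at 88.4% of its PND 28 mean by PND 21. The late members not called here were Adam25, Adam26b, Adam34 and Adam39, with folds of 6.33, 5.26, 7.74 and 4.26 and adjusted p of 0.0586, 0.0653, 0.0503 and 0.103. The number called fell to 4 without PND 21 mouse 1 (3 higher, with Adam12 lower), to 1 without PND 21 mouse 2, and to 3 without either PND 28 mouse, while 2.46%, 1.64%, 2.58% and 3.13% of all genes were called higher. Adam6a was called in all 10 fits without 1 mouse.

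Set against their PND 28 means, the early members stood at a median 8.48% at PND 14, with a range of 3.72% for Adam3 to 24.0% for Adam2, at 17.3% at PND 17 and at 62.4% at PND 21. The late members stood at a median 1.27% at PND 14, 0.368% at PND 17 and 18.1% at PND 21, with a highest value of 27.4% (Adam39) at PND 21 that lies below the lowest early one of 40.2% (Adam3). The late value at PND 14 rests on mouse 1, the library with spermatid markers, since 8 of the 12 late members were at 0 RPKM in mouse 2. The markers moved over the same ages: all 6 spermatocyte markers were called higher in PND 14 versus PND 7, all 5 round spermatid markers in PND 21 versus PND 17 and again in PND 28 versus PND 21, and all 4 elongating spermatid markers in PND 28 versus PND 21 and, with 1587 counts in mouse 1 and 52 in mouse 2, in PND 14 versus PND 7. In that comparison 3 of 5 round spermatid markers were called higher too, with 217 counts of the 5 in PND 14 mouse 1 and 60 in mouse 2. The part of cell composition in the timing of the members was not tested.

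Gene structure, which played no role in this grouping, divided along with it. All 5 germ cell members with several coding exons (Adam2, Adam3, Adam5, Adam18 and Adam32, with 19 to 22 coding exons each) were early, and all 12 late members have a single coding exon, as do the early members Adam1b and Adam30. The zinc-binding motif was present in 2 of 7 early members, again Adam1b and Adam30, and in 8 of 12 late members, the exceptions being Adam4, Adam6a, Adam6b and Adam29. The somatic members have 16 to 33 coding exons. These are counts over few genes that share ancestry, and are given as a description.

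Position went along with timing as well. Adam18, Adam3, Adam5 and Adam32 lie side by side on chromosome 8 (mm9 25712718 to 26059276, all on the minus strand), and all are early. The next gene of the family on that strand is Adam9 (26060083 to 26127394), a widely expressed somatic member, which was at 14.55 and 11.1 RPKM at PND 7, 22.66 and 18.48 at PND 14, 20.03 and 20.38 at PND 17, 14.22 and 13.74 at PND 21, and 10.11 and 9.06 at PND 28. Its fold between PND 28 and PND 7 was 1.08 (log2 -0.11, SE 0.22, adjusted p = 0.677) while that of its neighbour Adam32 was 2746.3. Further along chromosome 8, Adam24, Adam25 and Adam39 (41760448 to 41912215) and Adam26b, Adam26a and Adam34 (44605218 to 44784841) form 2 more groups, all of them late.

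Adam1b and Adam1a lie close together on chromosome 5 (121950106 to 121952989 and 121968613 to 121971704) and have the same zinc-site bases, yet were early and late. In PND 14 versus PND 7 Adam1b was called higher, and Adam1a had a log2 fold change of -0.92 (SE 0.55, edgeR adjusted p = 0.249). In PND 28 versus PND 21 Adam1a was called higher and Adam1b was not (fold 1.49, adjusted p = 0.275). The difference between the pair was not tested. Of the 50-base windows of their transcripts, 35% in Adam1a and 37.6% in Adam1b occur in the other gene, and since the authors counted uniquely placed reads, bases of this kind yield few counts.

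Other members share windows in the same manner, so their levels are uncertain: 32.4% of Adam25 and 37.1% of Adam39 windows occur in another coding gene, as do 35.6% for Adam26a, 34.9% for Adam26b, 30.1% for Adam6a, 30.5% for Adam6b and 19% for Adam34. Adam4 shares 12.8% of its windows, mainly with Gm4787, a gene outside the symbol rule that was at 0.485 and 0 RPKM at PND 7 and at 35.8 and 36.72 at PND 28. Adam2, Adam3, Adam5, Adam18, Adam24, Adam29, Adam30 and Adam32 share no window with another coding gene.

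**Figure D4:**
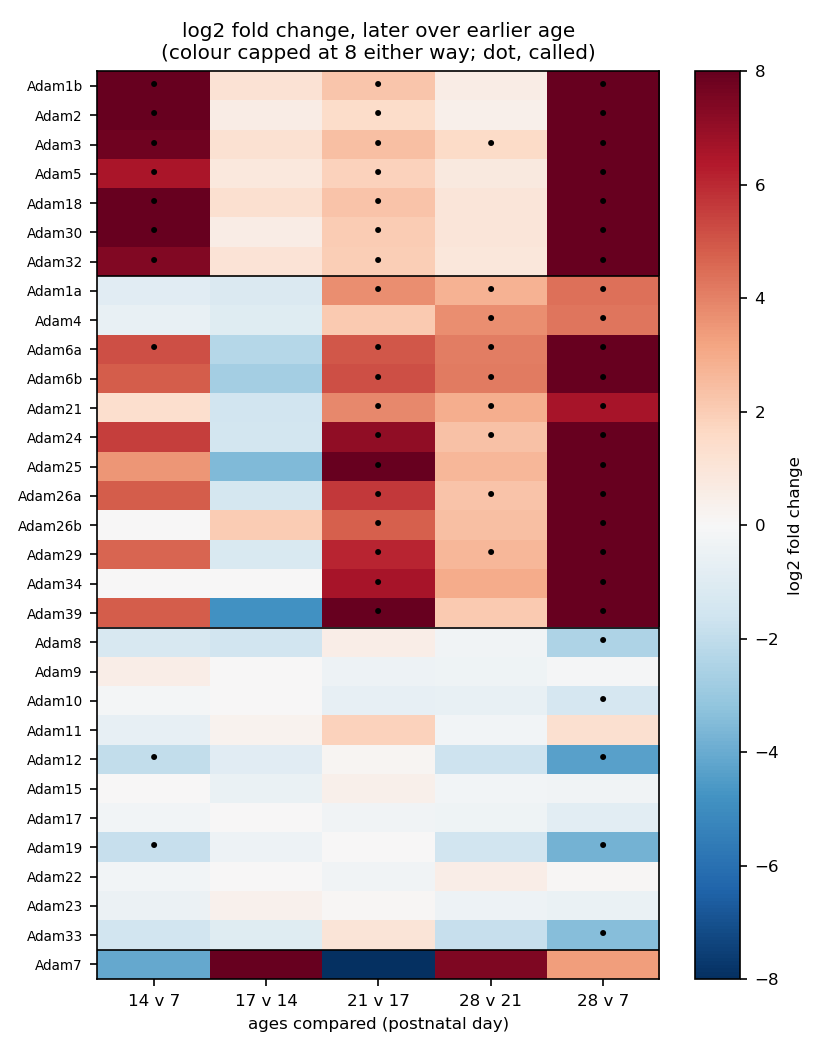
Colours give the edgeR log2 fold change of each tested member (rows: early, late, somatic, Adam7) in the 5 comparisons of ages (columns), capped at 8 in both directions, and dots mark calls. Dots fill the first column for the early members, the third for all germ cell members but Adam4, and the last column for every germ cell member.

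The somatic members were led by the sheddases. Adam10 (ENSMUSG00000054693), which cuts Notch and N-cadherin among other substrates, was at 40.03 and 43.27 RPKM at PND 7, 41.68 and 38.82 at PND 14, 36.07 and 41.87 at PND 17, 22.74 and 23.52 at PND 21, and 12.14 and 13.78 at PND 28. It kept its level up to PND 17 and stood lower in all 4 mice of the last 2 ages, and it fell 2.57-fold from PND 7 to PND 28 (log2 -1.36, SE 0.21, edgeR adjusted p = 0.000206). Adam17, which releases tumour necrosis factor and ligands of the epidermal growth factor receptor, was at 15.725 and 15.48, 14.62 and 13.54, 12.70 and 14.44, 10.27 and 10.25, and 6.89 and 7.15 RPKM. Its difference passed the adjusted p (0.00376) but at 1.77-fold not the fold threshold.

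Of the somatic members, Adam12, Adam19 and Adam33 had the largest fitted falls from PND 7 to PND 28. Adam12, known from mesenchyme and from cell fusion in muscle, was at 4.075 and 4.545 RPKM at PND 7, 1.33 and 1.06 at PND 14, 0.55 and 0.65 at PND 17, 0.31 and 0.86 at PND 21, and 0.18 and 0.14 at PND 28. It fell 3.84-fold by PND 14 (log2 -1.94, SE 0.43, edgeR adjusted p = 0.0097) and 20.4-fold by PND 28 (adjusted p = 3.88e-05). Adam19, a protease that acts on neuregulin, was at 2.27 and 3.32, 1.15 and 0.56, 0.61 and 0.58, 0.84 and 0.33, and 0.18 and 0.13 RPKM, and fell 3.55-fold by PND 14 (adjusted p = 0.0202) and 13.7-fold by PND 28 (adjusted p = 0.000173). Of its 7499 exonic bases 1067 lie opposite other transcripts, as do 1263 of the 6159 of Adam15. Without PND 14 mouse 2, neither Adam12 nor Adam19 was called in PND 14 versus PND 7, and the call of Adam19 was also lost without PND 7 mouse 2, the library with epididymis and lymphocyte markers, and with limma on log2(RPKM + 0.1). Adam33, best known from airway smooth muscle and fibroblasts, was at 0.98 and 0.835, 0.29 and 0.35, 0.18 and 0.10, 0.37 and 0.21, and 0.09 and 0.04 RPKM and fell 10.4-fold over the span (log2 -3.38, adjusted p = 0.00259), or by 4.17 on the log2 scale without PND 28 mouse 1.

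Adam8, a member of white blood cells, was called lower in PND 28 versus PND 7 (log2 -2.49, SE 0.95, adjusted p = 0.0405). It was at 0.66 and 2.90 RPKM at PND 7, 0.96 and 0.59 at PND 14, 0.38 and 0.06 at PND 17, 0.65 and 0.11 at PND 21, and 0.20 and 0.30 at PND 28. The highest value was that of PND 7 mouse 2, the library with lymphocyte and epididymis markers, and Adam8 was not called without that mouse (log2 -1.13) or without either PND 28 mouse.

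Adam15, Adam23, Adam22 and Adam11 were called in no comparison by the edgeR test described above. Adam11 was called higher in PND 28 versus PND 7 without PND 28 mouse 2 and with 1 barcode library per PND 7 mouse, and in PND 21 versus PND 17 in a fit of those 4 mice alone. Adam15 was between 1.60 and 3.54 RPKM, Adam23 between 1.06 and 2.315, Adam22 between 0.50 and 0.82, and Adam11 between 0.23 and 1.51. From PND 7 to PND 28 their log2 fold changes were -0.30 (SE 0.31), -0.51 (SE 0.31), 0.11 (SE 0.35) and 1.28 (SE 0.61). Over the same ages all 6 Sertoli cell markers, 5 of 6 spermatogonial markers and 2 of 4 peritubular myoid markers were called lower, the Sertoli markers from a summed 269.2 and 194.1 to 63.6 and 69.4 RPKM, while 3 of 6 Leydig cell markers were called higher, from a summed 147.9 and 180.4 to 580.7 and 455.9 RPKM, and none of 5 macrophage markers was called. The part of these cells in the fall of the somatic members was not tested.

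**Figure D5:**
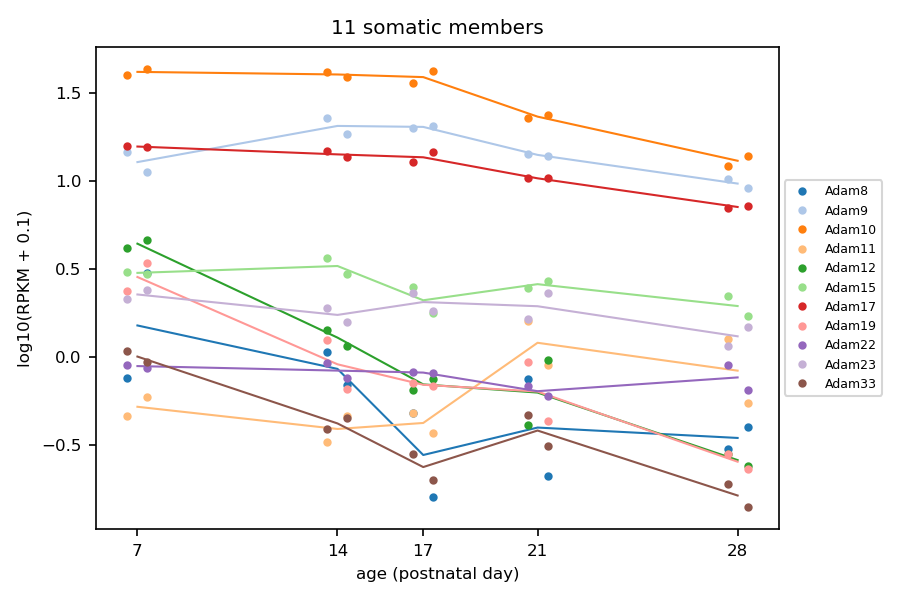
Points are the values of 1 mouse and lines the mean of log10(RPKM + 0.1) at each age, for the 11 somatic members against age in postnatal days. Adam10, Adam9 and Adam17 stay on top throughout, and Adam12, Adam19 and Adam33 have the longest falls, from 4.075 and 4.545 to 0.18 and 0.14 RPKM in the case of Adam12.

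Adam7 and Adam28 were nearly absent. Adam7, a gene of the epididymis epithelium, had 174 counts (3.62 RPKM) in PND 17 mouse 1, 41 counts (1.29 RPKM) in PND 28 mouse 1, 5 in PND 7 mouse 1 and 0 in the other 7 mice. PND 17 mouse 1 is the library with 2430 counts of Crisp1, 2839 of Spink8 and 59 of Lcn5, all of them epididymis genes, and in that mouse 5 listed exons of Adam7 had over 10 reads. PND 28 mouse 1 was alone in holding Lcn8 (6 counts) and Lcn9 (7 counts). Of the other epididymis markers, Crisp1 had 3 counts in each PND 28 mouse and Rnase9 had 0 in mouse 1 and 3 in mouse 2. Spink8 had 17 and 8, Cst11 9 and 1, Lcn5 2 and 0, and Rnase10 83 and 25. The 8 markers summed to 12.4 RPKM in PND 28 mouse 1, with counts of 7, and to 6.19 RPKM in mouse 2, with counts of 5. PND 7 mouse 2, with 466 counts of Crisp1, had no count of Adam7. Adam7 was called in no comparison by the edgeR test described above, although a fit with the mouse number as a block or without the filter on low counts called it, and the part of epididymis tissue in its counts was not tested. Adam28, known from lymphocytes and epididymis, had 7 counts in all, of which 4 were in PND 28 mouse 1, and was not tested.

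Of 13 partner genes for the folding, processing and surface transport of ADAM proteins, 12 were called higher at PND 28 than at PND 7, against 32.2% of all genes, and none was lower. One of them, Rnase10, is also an epididymis gene. Against the age before, 9 of the 13 were called higher at PND 14 (13.5% of all genes), none at PND 17 (0.0%), 5 at PND 21 (9.29%) and 5 at PND 28 (7.37%). Of the 9, Prss37 and Pdilt had most of their PND 14 counts in mouse 1, the library with spermatid markers. Pdilt, named for that split, had 44 counts there and 4 in mouse 2. Lypd4 was at 0.065 and 0 RPKM at PND 7, 36.77 and 48.75 at PND 14, 69.6 and 47.88 at PND 17, 131.59 and 139.23 at PND 21, and 328.46 and 228.53 at PND 28. Cmtm2a, of a gene pair whose loss removes ADAM3 from sperm, was at 0 and 0, 36.16 and 64.46, 143.31 and 66.16, 321.15 and 339.64, and 774.55 and 588.97 RPKM. Prss37, a protease-like gene required for mature ADAM3, was at 0 and 0, 2.67 and 0.64, 0.20 and 0.23, 1.80 and 0.87, and 114.82 and 117.8 RPKM, with 23 of its 28 PND 14 counts in mouse 1.

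Pcsk4, the germ cell convertase that cuts prodomains of sperm ADAM proteins, was at 0.735 and 0.955 RPKM at PND 7, 4.06 and 5.55 at PND 14, 6.62 and 4.08 at PND 17, 15.7 and 12.2 at PND 21, and 28.22 and 18.56 at PND 28, a 37.0-fold rise over the span (edgeR adjusted p = 1.74e-06). Tpst2, named because it was the partner not called, encodes a tyrosine sulphotransferase (log2 -0.89, SE 0.45, adjusted p = 0.105). Of the 4 somatic convertases, Furin, Pcsk5 and Pcsk6 fell 3.37-fold, 3.43-fold and 3.22-fold from PND 7 to PND 28. Pcsk7 stood 1.55-fold higher at PND 28 (log2 0.63, adjusted p = 0.0229), under the fold threshold. Furin was at 8.08 and 7.215 RPKM at PND 7 and at 1.83 and 1.81 at PND 28.

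The listed regulators and ligands of the somatic members were few, and those called between PND 7 and PND 28 were lower. Both carriers of ADAM17, the inactive rhomboids Rhbdf1 and Rhbdf2, fell, 11.6-fold and 8.88-fold, with Rhbdf2 at 7.385 and 6.945 RPKM at PND 7 and 0.74 and 0.52 at PND 28. Of 5 tested tetraspanins that bind ADAM10, Tspan14 fell 5.24-fold and the other 4 were not called between PND 7 and PND 28. Of 4 tested inhibitors, Timp3 fell 2.96-fold, from 14.545 and 15.93 to 3.24 and 5.04 RPKM, and Timp1, Timp2 and Reck were not called. Among 3 tested LGI genes, whose products bind ADAM22 and ADAM23, Lgi2 fell 11-fold, from 2.72 and 3.49 to 0.20 and 0.25 RPKM. Set beside the background of 23.4% lower, the genes called lower were 1 of 4 inhibitors, 3 of 4 convertases, both ADAM17 carriers, 1 of 5 tetraspanins and 1 of 3 LGI genes. The inhibitors, tetraspanins and LGI genes thus lay near that background, on few genes.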

How the data were processed

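Whole-testis RNA of 10 mice was sequenced in 12 libraries on the SOLiD platform after rRNA depletion. Per the study's methods, reads were mapped by the authors to the mm9 assembly using LifeScope, those from rRNA, tRNA and repeats were taken out, and uniquely placed reads gave the deposited count of each gene. The RPKM values were also deposited by the authors, as reads per kilobase of exon model scaled to mapped reads. Whether strand was used in counting is not given in the sources used here, so reads of Adam8, Adam15, Adam17 and Adam19 and of the genes that overlap them on the other strand cannot be told apart. Adam1a shares exonic bases with a gene of its own strand, and Adam4 overlaps 2 genes of its own strand without shared exonic bases.

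Gene IDs were matched to the mm9 annotation (GENCODE M1) for 37310 of 37675 genes. Counts were fitted with edgeR 4.0.16 (quasi-likelihood, TMM, filterByExpr, R 4.3.3), age as a factor and all 10 mice in 1 fit, and p-values were adjusted by Benjamini-Hochberg over 16860 genes. Calls needed both an adjusted p under 0.05 and a 2-fold difference or more. Where an age had no count, a floor of 3 counts over its 2 mice gave a bound on the fold, and ratios on 1 to 3 counts carry exact 95% intervals, which cover counting error only. Levels are RPKM. Folds come from TMM-scaled counts. Alternatives were DESeq2 1.42.0, limma 3.58.1 on log2(RPKM + 1) or log2(RPKM + 0.1), RLE scaling or library totals, other filters, the 4 mice of a comparison alone, a replicate block, no minimum fold, 1 barcode per PND 7 mouse, and each mouse left out in turn. The edgeR fit with its main settings was tested on simulated counts that gave all genes the same spread. The alternative fits were not tested in this way. Motif windows and shared 50-base windows were computed from the annotated transcripts, with Biopython 1.88 for alignment.

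The members and lists were chosen with earlier results of these data known. All members may be named, with values per mouse for those called and for the 3 highest at PND 7, and at most 4 genes of a list by lowest adjusted p in PND 28 versus PND 7. Clgn, Ly6k, Pdilt and Tpst2 were named besides, for the reasons given with them. Of the partner list, 13 of 14 symbols were found.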

Additional observations from a re-analysis of the deposited data

How the results depend on the processing

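Of 1276 repeats of single member calls under another setting or without 1 mouse, 1148 kept their direction and call, 128 kept the direction but lost the call, and none changed direction. The setting without a minimum fold is the same fit with a threshold dropped. Its repeats, 10 in PND 14 versus PND 7, 18 in PND 21 versus PND 17, 9 in PND 28 versus PND 21 and 24 in PND 28 versus PND 7, were kept by design. The number of members called moved by over 1.5 times in these cases. In PND 17 versus PND 14 it went from 0 to 5 without the filter on low counts (Adam1b, Adam3, Adam18, Adam32 and Adam7), and Adam7 was called without it in each comparison but PND 14 versus PND 7. In PND 21 versus PND 17 it was 8 with limma on log2(RPKM + 0.1), and 5 to 19 when 1 mouse was left out. In PND 28 versus PND 21 it was 15 without the filter, 3 with limma on log2(RPKM + 0.1), and 1 to 13 when 1 mouse was left out. The cause was not tested. With the mouse number as a replicate block, 9, 0, 19, 9 and 24 members were called in the 5 comparisons, in the order of the ages with PND 28 versus PND 7 last, and Adam7 was then called lower in PND 21 versus PND 17 and higher in PND 28 versus PND 7. Deviations of same-numbered mice correlated between -0.17 and 0.048, which gives no sign of a pairing by number. A shared run or batch was not tested. Adam8 in PND 28 versus PND 7 was lost under RLE scaling, the replicate block and both limma settings, and Adam33 with limma on log2(RPKM + 1). Library totals in place of TMM moved the median log2 fold change of all genes by -0.322 in PND 28 versus PND 7, and RLE by 0.164, which exceeds the fold change of Adam9 and Adam22 there, so those have no direction. By summed CPM, which is not per length, the germ cell share of the family rose from 2.12% and 3.49% at PND 7 to 96.4% and 96.5% at PND 28. Depth limits the early members at PND 7, with 18 and 17 counts over all 7, and the late members up to PND 17, with 22 to 154 counts over all 12.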
